A study of Mus musculus with 21 samples.

Results

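Integrins are the cell surface receptors by which macrophages hold on to vessel walls, matrix and other cells, and 2 of them, CD11b and CD11c, are the markers by which renal macrophages were sorted in this study. The genes described here are 10 integrin subunits chosen by name, *Itgax*, *Itgam*, *Itgal*, *Itgb2*, *Itgav*, *Itgb5*, *Itga4*, *Itga6*, *Itgb1* and *Itgb7*, out of 34236 gene symbols counted in 21 RNA-seq libraries. All libraries were of flow-sorted macrophages from kidneys of male C57BL/6J mice aged 24 weeks that had either a sham operation (Sham) or renal artery stenosis (RAS), made with a cuff around the right renal artery. The labels give a flow sort time of 5 hours. Lineage-negative CD45+ cells were gated as F4/80+ and CD64+, and then split by the protein of 2 of the genes described here. CD11chiMϕ were CD11bhi and CD11chi (Sham, 3 libraries; RAS, 4 libraries), CD11cloMϕ were CD11bhi with low or no CD11c (Sham, 3 libraries; RAS, 4 libraries), and kidney-resident macrophages (KRM) were intermediate for both (Sham, 4 libraries; RAS, 3 libraries). The labels call the first 2 populations monocyte-derived. They do not say whether a library came from 1 mouse or from a pool, so p-values measure the spread between these libraries.

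An integrin is a pair of 1 α and 1 β subunit, and a subunit without its partner is not carried to the cell surface. β2 (*Itgb2*) is found only on leukocytes and pairs with αL (*Itgal*, LFA-1), αM (*Itgam*, CD11b, Mac-1), αX (*Itgax*, CD11c) and αD (*Itgad*), which bind ICAMs, complement fragments and fibrinogen. αv (*Itgav*) with β5 (*Itgb5*) binds vitronectin and takes part in the uptake of apoptotic cells and in the activation of latent TGF-β, α4 (*Itga4*) with β1 (*Itgb1*) or β7 (*Itgb7*) binds VCAM-1, fibronectin and MAdCAM-1, and α6 (*Itga6*) with β1 binds laminin. Monocytes use the β2 and α4 integrins to leave the blood.

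*Itgax* and *Itgam* lie next to each other on chromosome 7, at chr7:128129547-128150657 and chr7:128062640-128118491 on the plus strand (GENCODE vM21, GRCm38), and *Itgal* is on the same chromosome at chr7:127296260-127335138. *Itgb5* is at chr16:33829665-33949338 on the plus strand and *Itgb7* at chr15:102215995-102231944 on the minus strand. Promoters were matched by symbol for 7 of the 10 genes in RefSeq (GRCm38.p6). The 250 bases before the RefSeq start are shown for 4 of them: the 2 genes whose protein set the gates, the gene with the highest level per length in KRM, and a β subunit that was low in KRM. Capitals mark 2 short motifs. The first is GAGGAA, the core of many PU.1 sites, which reads on the opposite strand as TTCCTC. The second is GGGCGG, the GC box bound by Sp1, which reads there as CCGCCC. The motifs do not overlap each other. The regions are chr7:128129300-128129549 for *Itgax*, chr7:128062390-128062639 for *Itgam* and chr16:33829415-33829664 for *Itgb5*, all on the plus strand, and chr15:102231936-102232185 for *Itgb7*, on the minus strand. Each is written 5′ to 3′.
Itgax: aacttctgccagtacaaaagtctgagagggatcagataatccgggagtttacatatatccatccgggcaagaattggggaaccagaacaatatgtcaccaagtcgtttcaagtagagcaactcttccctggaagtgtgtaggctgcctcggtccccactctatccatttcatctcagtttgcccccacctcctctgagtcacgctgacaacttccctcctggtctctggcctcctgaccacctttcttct
Itgam: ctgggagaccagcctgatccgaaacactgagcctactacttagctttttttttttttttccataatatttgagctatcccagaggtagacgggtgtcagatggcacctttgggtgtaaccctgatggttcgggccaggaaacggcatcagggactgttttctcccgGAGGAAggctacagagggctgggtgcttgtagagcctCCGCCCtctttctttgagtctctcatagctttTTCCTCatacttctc
Itgb5: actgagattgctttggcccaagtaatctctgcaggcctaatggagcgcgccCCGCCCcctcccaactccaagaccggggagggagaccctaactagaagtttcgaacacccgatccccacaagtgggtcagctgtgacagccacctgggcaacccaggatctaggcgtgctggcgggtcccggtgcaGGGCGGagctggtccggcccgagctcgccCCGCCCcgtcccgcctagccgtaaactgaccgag
Itgb7: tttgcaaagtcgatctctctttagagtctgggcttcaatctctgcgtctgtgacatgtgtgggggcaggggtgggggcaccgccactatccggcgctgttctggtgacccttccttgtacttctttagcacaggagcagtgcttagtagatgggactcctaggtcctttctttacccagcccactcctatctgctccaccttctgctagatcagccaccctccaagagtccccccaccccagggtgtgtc
The *Itgam* window holds 2 matches to GAGGAA and 1 to GGGCGG, the *Itgb5* window holds 3 matches to GGGCGG, and neither motif is in the windows of *Itgax* and *Itgb7*. Of 32817 promoter windows of 250 bases, 23.25% hold GAGGAA and 32.72% hold GGGCGG on either strand. A match describes the letters of the window and not a bound site.

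Libraries held between 6891148 and 18592395 counts, so each of the 10 genes was far above counting error in most libraries. The gated identity was visible in the RNA of all 6 groups, with *Ptprc* (CD45) between 470.2 and 2477 CPM. *Adgre1* (F4/80), listed under an older symbol, was between 119 and 1848 CPM. CPM here are counts scaled to the library total multiplied by its TMM factor, a scaling factor from edgeR. *Fcgr1* (CD64) ran from 12.4 to 117 CPM in CD11chiMϕ of RAS kidneys against 155 to 209.6 CPM in Sham KRM. None of the 8 macrophage genes was at 0 throughout a group, and their sum was between 2012 and 9686 CPM. Of the lists for other cells, 8 monocyte genes summed to 2858 to 13300 CPM in CD11cloMϕ and to 425 to 2366 CPM in the other libraries, and 8 neutrophil genes summed to 785 to 2508 CPM in CD11cloMϕ with *Ly6g* detected and to at most 237 CPM elsewhere, with *Ly6g* at 0 in KRM of both surgeries and in CD11chiMϕ of both. Dendritic cell genes (10) were highest in CD11chiMϕ, at 516 to 2109 CPM in Sham and 1318 to 5898 CPM in RAS, against at most 560.2 CPM in any other library. Tubular epithelial genes (13) reached 11440 CPM in replicate 3 of CD11chiMϕ Sham, 4649 CPM in replicate 3 of CD11cloMϕ Sham and 1128 to 4987 CPM in KRM of RAS kidneys, and were at or below 1703 CPM in all other libraries. The sums of 8 T and NK cell genes were at most 23.9 CPM in Sham and 8.24 to 336 CPM in RAS libraries. B and plasma cell genes (6 of 7 found) summed to 12.7 to 814 CPM, endothelial genes (9) to 10.7 to 298 CPM, fibroblast and pericyte genes (9) to 9.48 to 597 CPM and platelet genes (7) to 7.93 to 308 CPM. The part of such RNA in the results was not tested. In bulk RNA, fewer cells of a type and less RNA per cell cannot be told apart.

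4 libraries stood apart from the rest of their group in the levels of several integrins, and results that rest on them are given with and without them. They were replicate 3 of CD11chiMϕ Sham, replicate 1 of CD11chiMϕ RAS, replicate 3 of CD11cloMϕ RAS and replicate 1 of KRM RAS. The first of them held the 11440 CPM of tubular genes and the lowest sum of macrophage genes, 2012 CPM. Replicate 1 of CD11chiMϕ RAS had the lowest sum of dendritic cell genes of its group (1318 CPM, against 2262 to 5898 CPM) and the highest of macrophage genes (5865 CPM, against 2694 to 3553 CPM). Replicate 3 of CD11cloMϕ RAS had the lowest monocyte sum of its group (2858 CPM, against 5004 to 6776 CPM), and replicate 1 of KRM RAS had the highest T and NK cell sum of all libraries (336 CPM, against 34.0 and 35.4 CPM in the other two). They were picked after their levels were seen, so values without them are not independent support. Shares of all genes printed beside counts belong to the fits with all libraries of the groups compared. Replicate 1 of KRM Sham was low in *Itgav* (101 CPM, against 174 to 178 CPM) and was not left out with the 4.

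**Figure D1:**
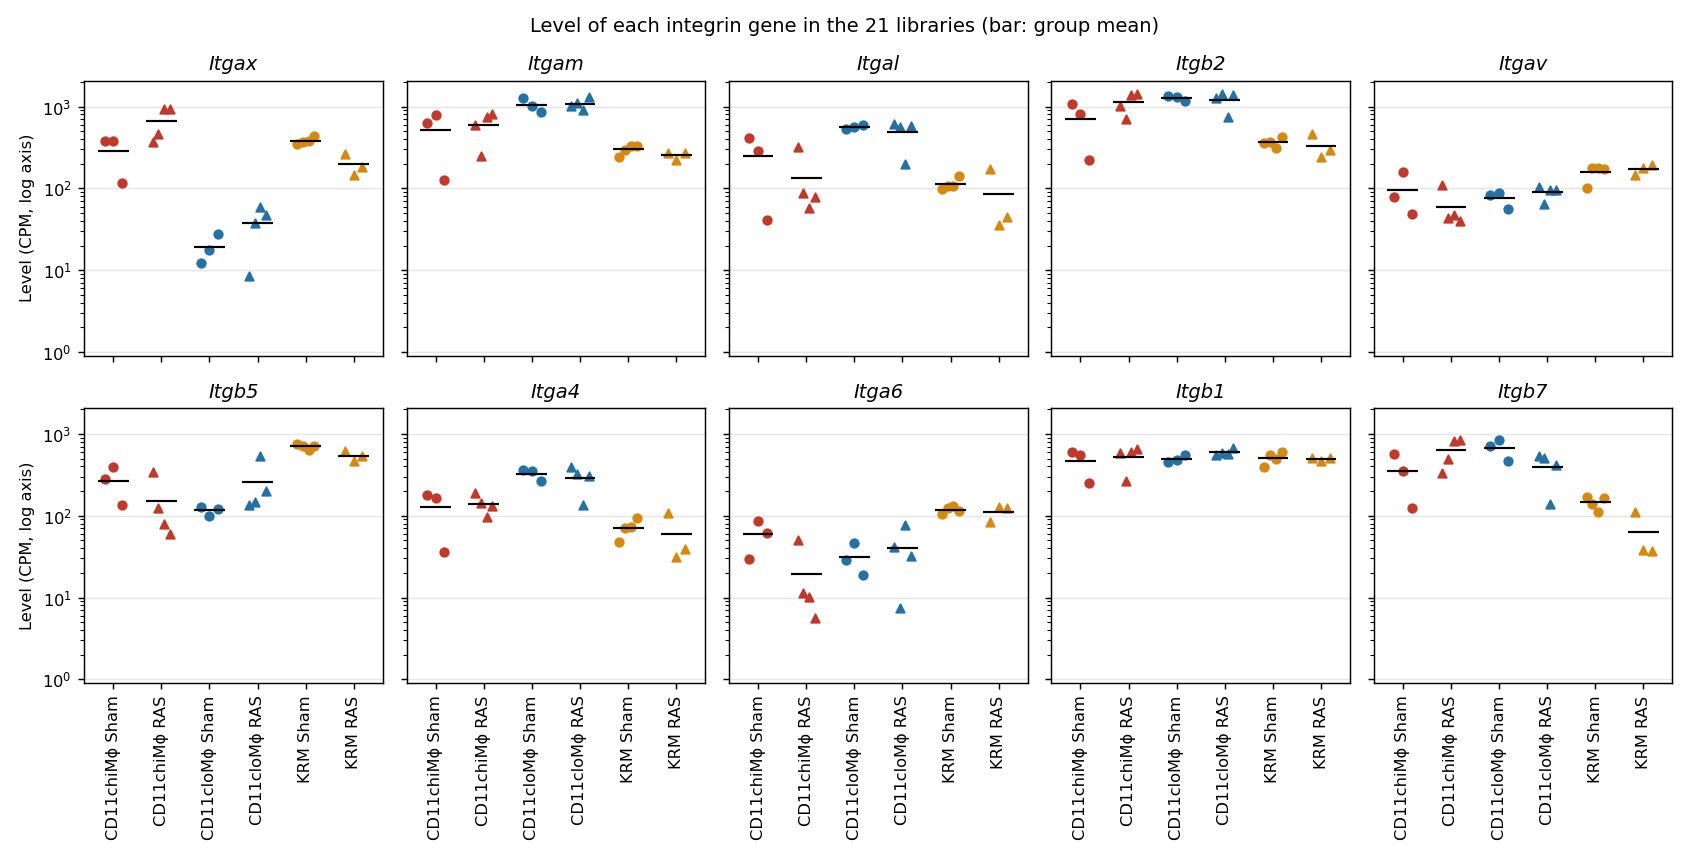
Level of each of the 10 integrin genes in CPM (log axis) in the 21 libraries, by population and surgery; circles are Sham libraries, triangles are RAS libraries, and bars are group means. *Itgax* is lowest in both CD11cloMϕ groups (means of 19.2 and 38.0 CPM), *Itgb5* is highest in KRM (703 and 543 CPM), and *Itgb1* has group means between 467 and 597 CPM.

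The RNA of the 2 gate genes followed the gates only in part. Since the protein of both set the populations, their levels between populations are a description and were not tested. *Itgax*, which encodes CD11c, was at 375, 376 and 116 CPM in the 3 Sham libraries of CD11chiMϕ and at 365, 458, 926 and 922 CPM in the 4 RAS libraries. In CD11cloMϕ it was at 12.1, 17.6 and 27.8 CPM in Sham and 8.45, 37.8, 58.5 and 47.4 CPM in RAS. In KRM it was at 348, 372, 380.2 and 431 CPM in Sham and 264, 144 and 183 CPM in RAS. The CD11cloMϕ libraries were thus below all others, with no overlap, while KRM and CD11chiMϕ overlapped in Sham, although the gate places KRM between the other populations. In RAS, all KRM libraries were below all CD11chiMϕ libraries. *Itgam*, which encodes CD11b, was highest in CD11cloMϕ, at 1279, 1028 and 852 CPM in Sham and 1023, 1121, 905 and 1310.0 CPM in RAS, and no other library reached the lowest of these values. It was at 633, 798 and 126 CPM in Sham and 599, 246, 750.4 and 816 CPM in RAS for CD11chiMϕ, which share the CD11bhi gate. KRM, gated as CD11b intermediate, were at 243, 295, 328 and 328 CPM in Sham and 272, 219.8 and 272 CPM in RAS. Within CD11chiMϕ the lowest library of Sham, at 126 CPM, was below all KRM libraries, and the lowest of RAS, at 246.5 CPM, lay within their range.

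*Itgb2*, the β chain that all CD11 subunits need, was the most abundant of the 10 genes per length in both monocyte-derived populations. It was at 1355, 1309 and 1171 CPM in CD11cloMϕ of Sham kidneys and at 1272, 1444, 739 and 1403 CPM in those of RAS kidneys. In CD11chiMϕ it was at 1087, 819 and 219 CPM in Sham and 1004, 707, 1375 and 1439 CPM in RAS. KRM had 357, 365, 312 and 425 CPM in Sham and 456, 242 and 292 CPM in RAS. Every KRM library was below every CD11cloMϕ library, and the CD11chiMϕ libraries lay between or beside them, with replicate 3 of Sham the lowest of all 21. *Itgal*, the αL chain of LFA-1, ran at 537, 565 and 593 CPM in CD11cloMϕ of Sham kidneys and 612, 559, 199.8 and 582 CPM in RAS. The levels in CD11chiMϕ were 414, 289 and 41.5 CPM in Sham and 318, 87.0, 58.0 and 77.9 CPM in RAS. The Sham libraries of KRM held 98.0, 107, 107 and 142 CPM and the RAS libraries 174, 35.5 and 44.1 CPM. *Itgal* was thus at its most even in CD11cloMϕ of Sham kidneys, and in each RAS group 1 library was far from the others.

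Counted per kilobase of exon, so that genes of different length can be compared, the transcripts of the α subunits that pair with β2 were made up differently in the 3 populations. In CD11cloMϕ of Sham kidneys *Itgam* took 63.8 to 75.1% of the sum of *Itgam*, *Itgax*, *Itgal* and *Itgad*, *Itgal* took 24.1 to 34.0%, and *Itgax* 0.744 to 2.17%. In Sham KRM *Itgax* was the largest share, 49.2 to 53.4%, with *Itgam* at 35.7 to 40.7% and *Itgal* at 10.1 to 12.2%. In CD11chiMϕ of Sham kidneys *Itgam* held 45.2 to 56.5% and *Itgax* 27.8 to 43.4%. In RAS, *Itgax* took 31.2 to 60.4% in CD11chiMϕ, 37.9 to 40.4% in KRM and 0.589 to 5.47% in CD11cloMϕ. The 3 RAS libraries of KRM were therefore all below the 4 Sham libraries in the *Itgax* share, and the *Itgam* share was above the *Itgax* share in 2 of the 3. *Itgad*, the fourth partner, took at most 0.160% in any library. These shares use the 2 gate genes and were not tested.

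**Figure D2:**
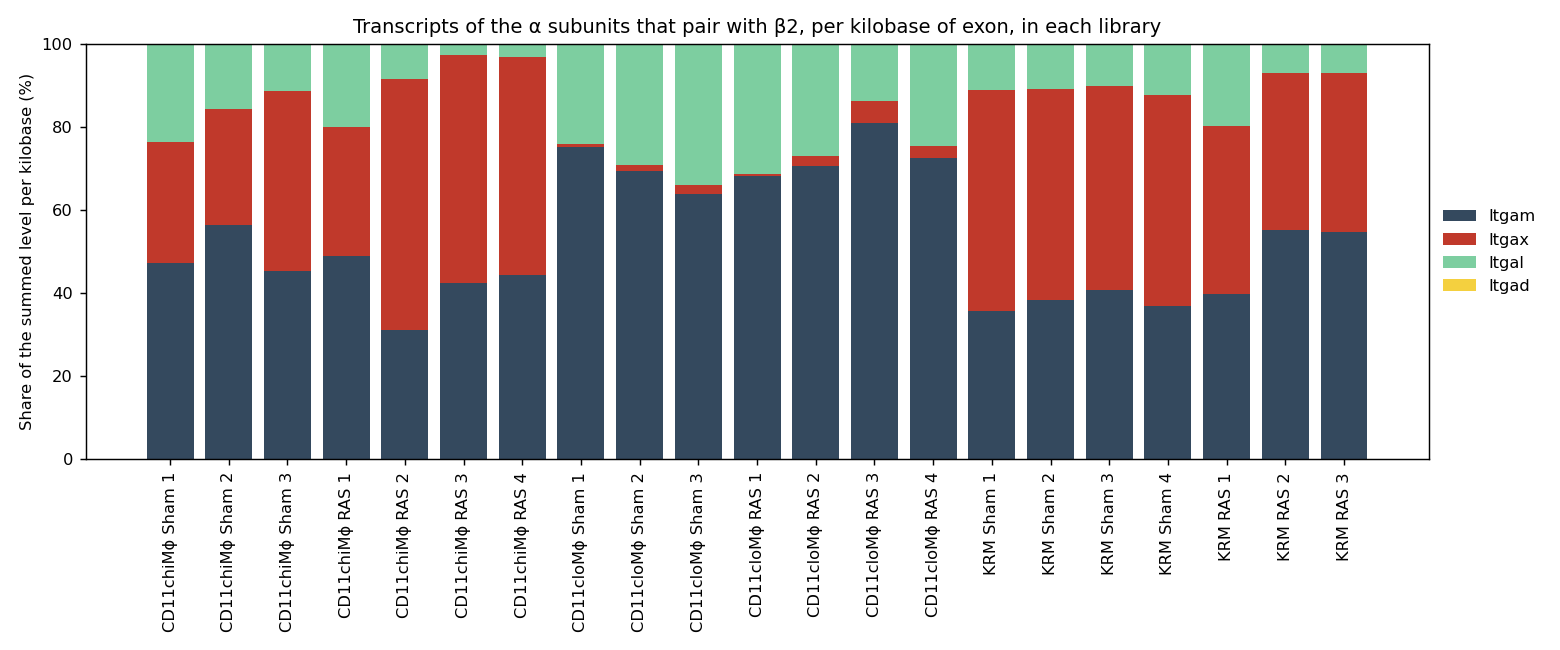
Share of *Itgam*, *Itgax*, *Itgal* and *Itgad* in their summed level per kilobase of exon (%), 1 stacked bar for each of the 21 libraries. *Itgax* is 49.2 to 53.4% of the bar in Sham KRM and 5.47% at most in CD11cloMϕ, and *Itgad* is too small to be seen.

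The αv and β5 chains were highest in KRM. *Itgb5* was at 751, 721, 628 and 713 CPM in the 4 Sham libraries of KRM and at 623, 470.4 and 535 CPM in the 3 RAS libraries. In CD11chiMϕ it was at 279.6, 390.1 and 137 CPM in Sham and 340.0, 126, 78.4 and 60.01 CPM in RAS. In CD11cloMϕ it was at 129, 99.0 and 121 CPM in Sham and 136, 148, 536 and 202 CPM in RAS. The only library outside KRM to reach the KRM levels was replicate 3 of CD11cloMϕ RAS, and the Sham and RAS groups of KRM only just stayed apart. *Itgav* was at 101, 176, 178 and 174 CPM in Sham KRM and 146, 178 and 190.5 CPM in RAS KRM, with replicate 1 of Sham well below the other 3. Its levels in CD11cloMϕ were 82.2, 87.9 and 55.9 CPM in Sham and 105, 64.0, 94.2 and 94.3 CPM in RAS. Those in CD11chiMϕ were 78.8, 160.1 and 48.0 CPM in Sham and 109.6, 43.0, 47.3 and 40.0 CPM in RAS. Replicate 2 of CD11chiMϕ Sham lay within the KRM range, and so did replicate 1 of CD11chiMϕ RAS and replicate 1 of CD11cloMϕ RAS, each just above the lowest KRM library.

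*Itga4*, the α chain that leads monocytes to VCAM-1, was highest in CD11cloMϕ, at 367, 351 and 264 CPM in Sham and 398, 323, 133 and 302 CPM in RAS. It was at 179, 164 and 35.7 CPM in CD11chiMϕ of Sham kidneys and 188, 144, 97.6 and 132 CPM in those of RAS kidneys. KRM were at 47.4, 71.2, 72.3 and 93.7 CPM in Sham and 109, 31.3 and 38.9 CPM in RAS, below all CD11cloMϕ libraries. *Itgb7*, the β chain that pairs with α4 or αE, was also low in KRM. It was at 703, 845 and 460.4 CPM in CD11cloMϕ of Sham kidneys and 534, 506, 139.9 and 417 CPM in RAS, and at 568, 352 and 124 CPM in CD11chiMϕ of Sham kidneys and 337, 493, 829 and 850.1 CPM in RAS. KRM had 171, 141, 112 and 166 CPM in Sham and 111, 38.5 and 37.4 CPM in RAS, so that the KRM groups of the 2 surgeries only just stayed apart.

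*Itga6*, the laminin receptor chain, had the lowest group mean of the 10 genes per length in both groups of CD11chiMϕ and of CD11cloMϕ. KRM held 104, 123, 130.5 and 114 CPM in Sham and 84.0, 128 and 123 CPM in RAS. In CD11cloMϕ it was at 29.1, 46.8 and 18.7 CPM in Sham and 41.9, 7.52, 77.6 and 32.6 CPM in RAS, and in CD11chiMϕ at 29.5, 86.1 and 61.5 CPM in Sham and 50.0, 11.4, 10.3 and 5.59 CPM in RAS. Only replicate 2 of CD11chiMϕ Sham, outside KRM, reached the lowest KRM library. *Itgb1*, the common partner of α4, α6 and αv, was at similar levels in all populations. It lay between 397.5 and 676 CPM in all libraries but 2, replicate 3 of CD11chiMϕ Sham at 252 CPM and replicate 2 of CD11chiMϕ RAS at 262.5 CPM.

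Between KRM and CD11cloMϕ of Sham kidneys, *Itgal*, *Itgb2*, *Itga4* and *Itgb7* were lower in KRM and *Itgb5*, *Itgav* and *Itga6* higher. *Itgb5* averaged 703 ± 52.8 CPM (SD, n = 4) in KRM against 116 ± 15.6 CPM (SD, n = 3) in CD11cloMϕ, a log2 fold change of 2.57 (SE 0.14, adjusted p = 5.96e-06) by the quasi-likelihood test of edgeR, adjusted over all genes. *Itga6* was higher by 1.88 (SE 0.30, adjusted p = 0.00151) and *Itgav* by 1.04 (SE 0.25, adjusted p = 0.011). *Itgal* fell to a log2 fold change of -2.34 (SE 0.14, adjusted p = 9.51e-06), *Itga4* to -2.23 (SE 0.23, adjusted p = 0.000153), *Itgb7* to -2.22 (SE 0.24, adjusted p = 0.000191) and *Itgb2* to -1.83 (SE 0.14, adjusted p = 2.8e-05). The common chain *Itgb1* was at 509 ± 87.5 CPM (SD, n = 4) and 494 ± 48.1 CPM (SD, n = 3), a log2 fold change of 0.02 (adjusted p = 0.914). Thus 7 of the 8 genes that set no gate passed the test, 3 higher and 4 lower, in a comparison in which 41.8% of all 12399 genes passed it (19.5% higher, 22.3% lower). The libraries of the 2 groups did not overlap for the same 7 genes, as for 48.8% of all genes. Neutrophil genes summed to 785 to 2237 CPM in these CD11cloMϕ libraries and 5.76 to 8.79 CPM in KRM. Monocyte genes summed to 4120 to 13300 CPM and 699 to 985 CPM. The part of these sums in the calls was not tested. The calls of *Itgav* and *Itga6* were lost when all 6 groups shared 1 fit (adjusted p = 0.053 and 0.0512). Without replicate 1 of KRM Sham *Itgav* was at 1.199 (adjusted p = 0.00358).

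CD11chiMϕ of Sham kidneys, which share the CD11bhi gate with CD11cloMϕ, were spread widely, and no gene of the 8 passed the test against KRM. *Itgb5* was higher in KRM by 1.35 (SE 0.32, adjusted p = 0.0604) and *Itga6* by 0.95 (SE 0.34, adjusted p = 0.151), and for these 2 genes all KRM libraries were above all CD11chiMϕ libraries, as for 13.5% of all genes. *Itgb7* differed by -1.27 (SE 0.43, adjusted p = 0.137), *Itgal* by -1.15 (adjusted p = 0.275), *Itgb2* by -0.99 (adjusted p = 0.228) and *Itga4* by -0.85 (adjusted p = 0.305), each lower in KRM on average. By edgeR 0 of 8 genes passed, where 5.12% of all genes did, and 3 of 8 had an unadjusted p under 0.05, where 24.4% of all genes did. DESeq2 called 2 of them (*Itgb5* and *Itgb7*) and limma called 0 on the log2 table. Of all called genes 19.53% were higher in KRM by edgeR and 31.97% by limma. Without replicate 3 of CD11chiMϕ Sham, 5 genes passed, *Itgal* at a log2 fold change of -1.65 (adjusted p = 0.00158), *Itgb2* at -1.40 (0.00146), *Itga4* at -1.28 (0.0109), *Itgb7* at -1.66 (0.00299) and *Itgb5* at 1.06 (0.00577). Without replicate 2 of the same group *Itgb5* alone passed, at 1.71 (adjusted p = 0.0365). In the fit without replicate 1 of that group 0 of the 8 passed, and *Itgal*, *Itgb2*, *Itga4* and *Itgb7* were at -0.55, -0.53, -0.50 and -0.71.

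Between the 2 monocyte-derived populations of Sham kidneys no gene of the 8 passed. CD11chiMϕ had more *Itgb5* than CD11cloMϕ, 269 ± 127 CPM (SD, n = 3) against 116 ± 15.6 CPM (SD, n = 3), a log2 fold change of 1.26 (SE 0.36, adjusted p = 0.148), and less *Itga4*, with -1.34 (SE 0.54, adjusted p = 0.269). *Itgal*, *Itgb2* and *Itgb7* were lower in CD11chiMϕ by -1.16 (adjusted p = 0.438), -0.82 (adjusted p = 0.468) and -0.90 (adjusted p = 0.423). For *Itgal*, *Itgb2* and *Itga4* all CD11chiMϕ libraries were below all CD11cloMϕ libraries, as for 14.3% of all genes, and for *Itgb5* all were above, as for 12.5%. By edgeR 0 of 8 genes passed, where 1.52% of all genes did. An unadjusted p under 0.05 was reached by 2 of 8 genes and by 17.7% of all genes, DESeq2 called 1 (*Itgb5*) and limma 0. Without replicate 3 of CD11chiMϕ Sham, *Itgb5* passed at 1.52 (adjusted p = 0.0177), while *Itgal*, *Itgb2* and *Itgb7* shrank to -0.69, -0.43 and -0.55. These 3 were at -1.74, -1.25 and -1.44 without replicate 1 of the same group, and did not pass.

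In RAS kidneys 4 of the 8 genes passed between KRM and CD11cloMϕ. *Itgb2* was lower in KRM by -1.85 (SE 0.35, adjusted p = 0.0303), *Itga4* by -2.25 (SE 0.55, adjusted p = 0.0465) and *Itgb7* by -2.66 (SE 0.60, adjusted p = 0.041), and *Itgav* was higher by 0.99 (SE 0.20, adjusted p = 0.0351). *Itgal* was at -2.51 (SE 0.68, adjusted p = 0.0567), *Itgb5* at 1.15 (SE 0.47, adjusted p = 0.14) and *Itga6* at 1.55 (SE 0.61, adjusted p = 0.127), and these did not pass by edgeR. *Itgal* passed with DESeq2 (adjusted p = 0.000569), with 1 fit over all 6 groups (0.0331) and by limma on the log2 table (0.0409), and DESeq2 and limma each called 5 of the 8. The log2 column of replicate 1 of KRM RAS did not follow its counts, and by limma without it *Itgal* was at an adjusted p of 0.00353. The 4 calls (1 higher, 3 lower) compare with 9.17% of all genes called, 3.28% higher and 5.89% lower. Of all called genes 35.8% were higher in KRM, and this share was 65.9% with total library size in place of TMM, under which *Itga4* did not pass (adjusted p = 0.0549). The call of *Itgav* was lost with 1 fit over all 6 groups (adjusted p = 0.097) and with the replicate number as a block (0.0684). With the block *Itgal* passed (0.0437). These calls rested on most of the libraries. Without replicate 2 or 3 of KRM RAS, or replicate 1, 2 or 4 of CD11cloMϕ RAS, 0 of the 8 genes passed, with adjusted p-values of 0.0505 to 0.162 for the 4 genes and log2 fold changes that kept their sign. Without replicate 1 of KRM RAS or replicate 3 of CD11cloMϕ RAS, *Itgal* passed as well, at -3.59 (adjusted p = 0.0118) and -2.74 (0.0366), and without the latter so did *Itgb5*, at 1.81 (0.00779). Without the 4 libraries that stood apart 7 of 8 genes passed.

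Against CD11chiMϕ of RAS kidneys, KRM had much less *Itgb7*, 62.4 ± 42.3 CPM (SD, n = 3) against 627 ± 253 CPM (SD, n = 4), a log2 fold change of -3.28 (SE 0.54, adjusted p = 0.0234). Dendritic cell genes summed to 336 to 394 CPM in KRM and 1318 to 5898 CPM in CD11chiMϕ, where the 2 libraries highest in *Itgb7* were also highest in this sum; its part in the result was not tested. *Itgb2* was lower by -1.72 (SE 0.35, adjusted p = 0.0335) and *Itgav* higher by 1.58 (SE 0.37, adjusted p = 0.0421). *Itgav* did not pass with total library size (adjusted p = 0.0602) or by limma on the log2 table (0.130), nor did *Itgb2* by limma (0.0622). These limma values include the log2 column of replicate 1 of KRM RAS, which did not follow its counts. By limma without that column *Itgb2* passed and *Itgav* did not (0.176). With the replicate number as a block in edgeR, *Itgb7*, *Itgb2* and *Itgav* did not pass (adjusted p = 0.0794, 0.0881 and 0.110). *Itgal* was at -0.63 (adjusted p = 0.601), and without replicate 1 of CD11chiMϕ RAS at 0.27 (adjusted p = 0.773). *Itga6* and *Itgb5* were at 2.59 (SE 0.68, adjusted p = 0.0522) and 1.91 (SE 0.56, adjusted p = 0.0692), with all KRM libraries above all CD11chiMϕ libraries for both, as for 11% of all genes, and by edgeR did not pass. Both passed with DESeq2 (adjusted p = 0.00145 and 0.00589) and with 1 fit over all 6 groups (0.0177 and 0.0259), *Itga6* also with no filter (0.0377) and by limma (0.0239), and *Itga4* by limma (0.046). The 3 of 8 genes called (1 higher, 2 lower) compare with 9.23% of all genes, 4.17% higher and 5.07% lower. Without replicate 3 or 4 of CD11chiMϕ RAS, or replicate 2 or 3 of KRM RAS, 0 of 8 passed, with adjusted p-values of 0.0731 to 0.168 for the 3 genes, and without replicate 2 of CD11chiMϕ RAS only *Itgb2* did. Without replicate 1 of CD11chiMϕ RAS, 5 passed, with *Itgb5* at 2.72 (adjusted p = 0.0059) and *Itga6* at 3.72 (0.00334) in addition, and without replicate 1 of KRM RAS 5 passed, with *Itga4* at -1.95 (0.00691) and *Itga6* at 2.74 (0.0371) in addition. CD11chiMϕ and CD11cloMϕ of RAS kidneys differed most in *Itgal*, at -1.86 (SE 0.58, adjusted p = 0.077). Next were *Itga4*, at -1.04 (SE 0.34, adjusted p = 0.0858), and *Itga6*, at -1.04 (SE 0.76, adjusted p = 0.431). By edgeR 0 of 8 genes passed there, where 8.27% of all genes did, 2 of 8 had an unadjusted p under 0.05 (25.8% of all genes), DESeq2 called 2 and limma 0. Without replicate 1 of CD11chiMϕ RAS, 3 passed, *Itgal* at -2.71 (adjusted p = 0.00429), *Itgav* at -1.04 (0.0128) and *Itga4* at -1.21 (0.0499), and without replicate 3 of CD11cloMϕ RAS *Itga4* passed, at -1.28 (0.022).

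**Figure D3:**
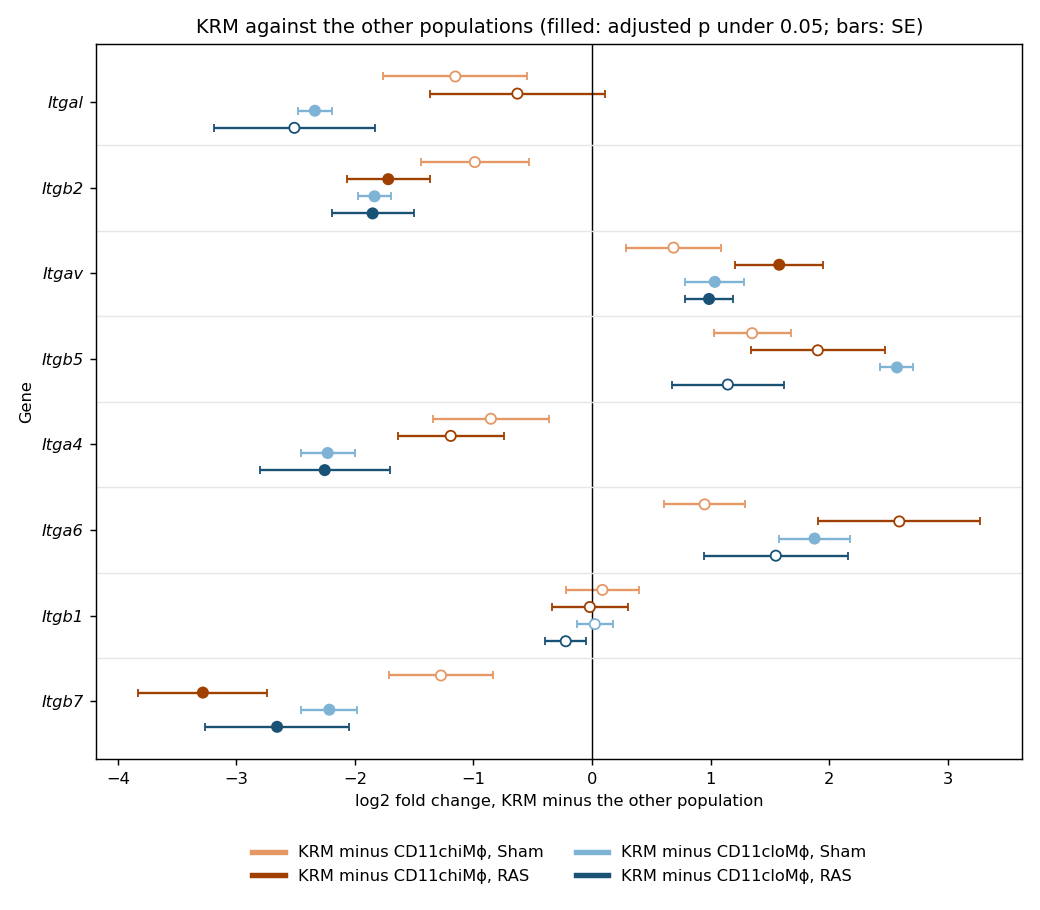
Log2 fold change of KRM against CD11chiMϕ and CD11cloMϕ, in Sham and in RAS kidneys, for the 8 integrin genes that set no gate; points are edgeR estimates, bars are standard errors, and filled points passed an adjusted p of 0.05. *Itgal*, *Itgb2*, *Itga4* and *Itgb7* lie below 0 and *Itgav*, *Itgb5* and *Itga6* above 0 in all 4 comparisons, while *Itgb1* lies between -0.22 and 0.09.

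Between the surgeries, 1 of the 10 genes passed by edgeR in KRM and 0 in each of the other populations. In KRM *Itgax* fell, from 383 ± 35.0 CPM (SD, n = 4) in Sham to 197 ± 61.0 CPM (SD, n = 3) in RAS, a log2 fold change of -0.86 (SE 0.20, adjusted p = 0.0422). It was the only one of 10 genes to pass by edgeR, in a comparison in which 9.7% of all 12852 genes passed, 1.94% in the direction of a fall, and 2 of the 10 had an unadjusted p under 0.05, where 34% of all genes did. Of all called genes 80.0% were higher in RAS, and this share was 42.6% by limma on the log2 table, whose column for replicate 1 of RAS did not follow its counts. All RAS libraries of KRM were below all Sham libraries for *Itgax*, *Itgb5* and *Itgb7*, as for 17.1% of all genes. For *Itgb5* and *Itgb7* the gap was narrow. The highest RAS library, replicate 1, was at 622.8 and 111.2 CPM, and the lowest Sham library, replicate 3, at 627.8 and 111.8 CPM. The TMM factors of these libraries were 1.136 and 1.078, and without the factors the groups would overlap for both genes. *Itgb7* was at 147 ± 27.1 CPM (SD, n = 4) in Sham and 62.4 ± 42.3 CPM (SD, n = 3) in RAS, a log2 fold change of -1.14 (SE 0.39, adjusted p = 0.0922) that passed with DESeq2 (adjusted p = 0.016) and by limma (0.0136), and *Itgb5* was at -0.27 (SE 0.14, adjusted p = 0.206). The other 7 genes had log2 fold changes between -0.33 (*Itgal*) and 0.23 (*Itgav*). KRM of RAS kidneys had 1128 to 4987 CPM of tubular genes, against 234 to 1703 CPM in Sham, and the sum of the 8 macrophage genes was 4128 to 7734 CPM against 8269 to 9395 CPM. B and plasma cell genes summed to 409.0, 73.85 and 73.55 CPM in replicates 1, 2 and 3 of RAS against 410.9 to 516.4 CPM in Sham. T and NK cell genes summed to 335.9, 35.41 and 34.03 CPM against 2.329 to 3.01 CPM. The part of these shifts in the fall of *Itgax* and in the lower *Itgb7* was not tested.

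Which genes passed in KRM depended on replicate 1 of RAS, which had the highest *Itgax*, *Itgal*, *Itga4* and *Itgb7* of its group. It also had the highest sums of T and NK cell genes (335.9 CPM, against 35.41 and 34.03 CPM) and of B and plasma cell genes (409.0 CPM, against 73.85 and 73.55 CPM). Their part in the result was not tested. Without replicate 1 of RAS 5 genes were lower in RAS: *Itgax* at -1.15 (adjusted p = 0.000723), *Itgal* at -1.44 (0.000658), *Itgb7* at -1.88 (0.000201), *Itga4* at -0.95 (0.0171) and *Itgb5* at -0.41 (0.0244). No share of all genes is given for this fit, and calls in the lists described below rose in it as well. Without any one of the other 6 libraries, replicates 1 to 4 of Sham and 2 and 3 of RAS, *Itgax* kept its sign, at -0.70 to -0.90, and did not pass, with adjusted p-values of 0.0562 to 0.155. *Itgax* also did not pass with total library size (adjusted p = 0.0539), with 1 fit over all 6 groups (0.249) or with the replicate number as a block (0.1475).

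In the monocyte-derived populations no gene passed. In CD11chiMϕ *Itgax* was at 289 ± 149.7 CPM (SD, n = 3) in Sham and 668 ± 298 CPM (SD, n = 4) in RAS, a log2 fold change of 1.13 (SE 0.52, adjusted p = 0.512), and *Itga6* was at 59.0 ± 28.4 CPM (SD, n = 3) and 19.3 ± 20.6 CPM (SD, n = 4), a log2 fold change of -1.67 (SE 0.75, adjusted p = 0.509). The sum of dendritic cell genes was 516 to 2109 CPM in Sham and 1318 to 5898 CPM in RAS, and the 2 RAS libraries highest in *Itgax* held 5509 and 5898 CPM; its part in the result was not tested. *Itgal* was at -0.91 (adjusted p = 0.692) and *Itgb5* at -0.88 (adjusted p = 0.63). Without replicate 1 of CD11chiMϕ RAS *Itga6*, *Itgal* and *Itgb5* were at -2.80 (adjusted p = 0.0796), -1.81 (adjusted p = 0.286) and -1.69 (adjusted p = 0.172), and without the 4 libraries that stood apart all 3 passed, at -2.73 (adjusted p = 0.0411), -2.31 (adjusted p = 0.0174) and -1.99 (adjusted p = 0.0402). Without replicate 3 of CD11chiMϕ Sham *Itgax* was at 0.77. The surgeries overlapped for all 10 genes, where they did not for 6.85% of all genes. By edgeR 0 of 10 genes passed, as 0% of all 12739 genes did, 0 of 10 had an unadjusted p under 0.05 (9.79% of all genes), and DESeq2 and limma called 0. In CD11cloMϕ all RAS libraries were above all Sham libraries for *Itgb5*, at 1.12 (SE 0.49, adjusted p = 0.554), and *Itgb1*, at 0.26 (SE 0.16, adjusted p = 0.633), as for 4.46% of all genes. *Itgb7* was at -0.75 (adjusted p = 0.609) and *Itgax* at 0.96 (adjusted p = 0.631). Again 0 of 10 genes passed, with 0% of all 12301 genes called, 0 of 10 at an unadjusted p under 0.05 (8.96% of all genes), and 0 by DESeq2 and limma. Without replicate 3 of CD11cloMϕ RAS the log2 fold change of *Itgb5* was 0.48 and that of *Itgb7* -0.46.

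**Figure D4:**
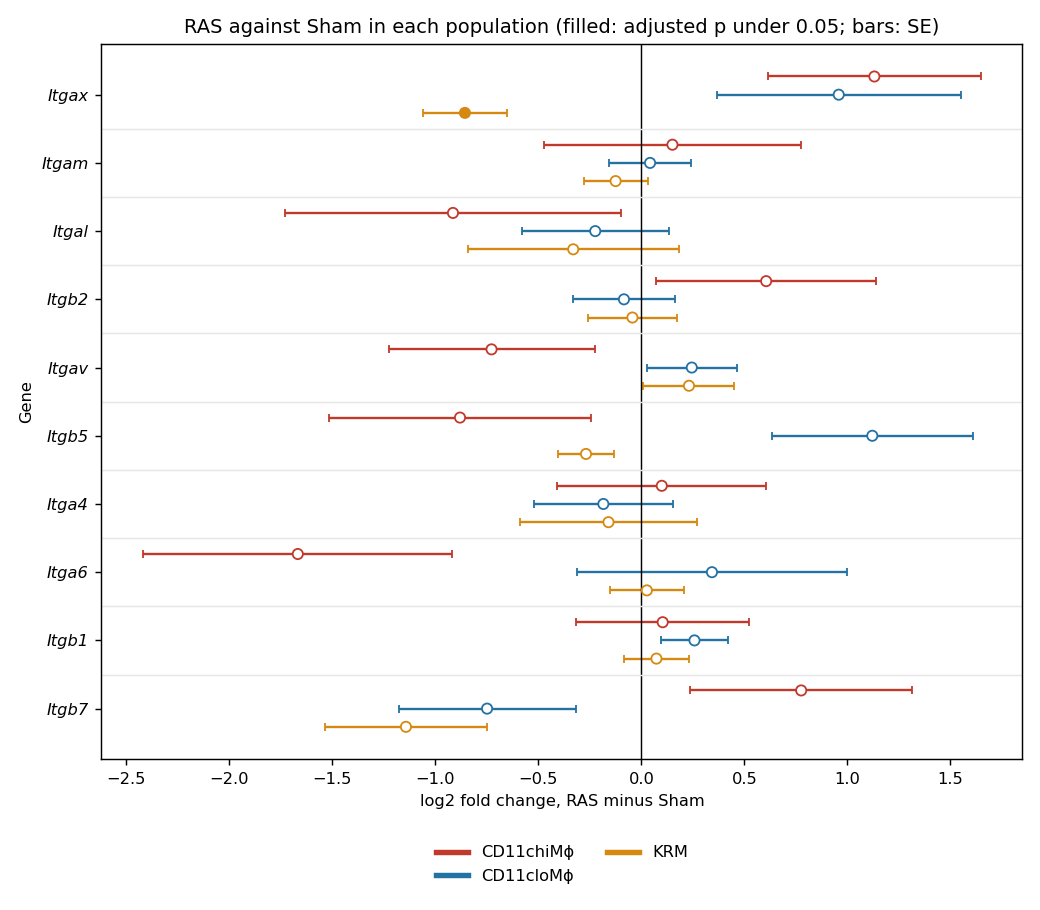
Log2 fold change of RAS against Sham for the 10 integrin genes in each population; points are edgeR estimates, bars are standard errors, and the filled point, *Itgax* in KRM at -0.86, is the only one with an adjusted p under 0.05. *Itgax* lies above 0 in CD11chiMϕ (1.13) and CD11cloMϕ (0.96), and *Itgb7* above 0 in CD11chiMϕ (0.78, and 0.39 to 1.32 without single libraries) and below 0 in CD11cloMϕ (-0.75).

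Whether the response to RAS differed between populations was tested as an interaction. For *Itgax* the response of KRM minus that of CD11chiMϕ was -2.04 (SE 0.59, adjusted p = 0.105), and the response of KRM minus that of CD11cloMϕ was -1.90 (SE 0.66, adjusted p = 0.123). *Itgb7* responded lower in KRM than in CD11chiMϕ by -1.97 (SE 0.72, adjusted p = 0.147), and *Itgb5* lower in KRM than in CD11cloMϕ by -1.45 (SE 0.54, adjusted p = 0.142) and lower in CD11chiMϕ than in CD11cloMϕ by -1.97 (SE 0.86, adjusted p = 0.735). None of these differences passed: by edgeR 0 of 10 genes were called in each of the 3 interactions, where 0%, 0.245% and 0% of all genes were. An unadjusted p under 0.05 was reached by 2, 2 and 1 of the 10 genes for KRM against CD11chiMϕ, KRM against CD11cloMϕ and CD11chiMϕ against CD11cloMϕ (21.2%, 23.7% and 6.65% of all genes), DESeq2 called 2, 1 and 0, and limma 0, 1 and 0. Without replicate 1 of CD11chiMϕ RAS the *Itga6* difference between KRM and CD11chiMϕ passed, at 2.76 (adjusted p = 0.043), as did that of *Itgb7* without replicate 1 of KRM RAS, at -2.67 (0.0411), and that of *Itgax* between KRM and CD11cloMϕ without replicate 1 of CD11cloMϕ RAS, at -2.23 (0.0282). The *Itgb5* difference between KRM and CD11cloMϕ was at -0.83 (adjusted p = 0.118) without replicate 3 of CD11cloMϕ RAS and at -0.92 (adjusted p = 0.0306) without the 4 libraries that stood apart.

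Compared per kilobase of exon, the order of the 10 genes set KRM apart from both other populations. In KRM *Itgb5* led, at 198 ± 14.9 CPM per kilobase in Sham (SD, n = 4) and 153 ± 21.5 in RAS (SD, n = 3), followed by *Itgb1* (125 ± 21.4 and 122 ± 5.37) and *Itgb2* (119.6 ± 15.2 and 108 ± 36.6), and the last 2 differed by less than their spread. In CD11cloMϕ *Itgb2* led, at 419 ± 31.4 CPM per kilobase in Sham (SD, n = 3) and 398 ± 107 in RAS (SD, n = 4), with *Itgb7* and *Itgam* next, at 242 ± 70.3 and 209.6 ± 42.7 in Sham, and *Itgb5* at 32.7 ± 4.38. In CD11chiMϕ *Itgb2* also led, at 232 ± 146 CPM per kilobase in Sham (SD, n = 3) and 371 ± 112 in RAS (SD, n = 4), ahead of *Itgb7* at 126 ± 80.1 and 226 ± 91.5. β chains thus took the first place in all 6 groups, and by group means *Itga6* was last in both groups of the monocyte-derived populations and *Itga4* in both groups of KRM. In CD11cloMϕ the libraries overlapped for *Itga6* and *Itgax*, at 3.49 ± 1.57 and 3.99 ± 1.65 CPM per kilobase in Sham and 4.42 ± 3.22 and 7.92 ± 4.47 in RAS, and *Itgax* was the lower in 2 of 3 Sham libraries and 1 of 4 RAS libraries. In Sham CD11chiMϕ *Itga6*, *Itgav* and *Itga4* differed by less than their spread. In the log2 table that the authors deposited the first place was the same in all 6 groups, and *Itgax* was last in both groups of CD11cloMϕ.

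The other integrin subunits were 16 genes, of which 9 were tested between KRM and CD11cloMϕ of Sham kidneys. In KRM 2 were higher and 4 lower, where 19.5% and 22.3% of all genes were, and their median log2 fold change was -0.82 against -0.04 over all genes. *Itga9*, an α chain that pairs with β1, averaged 431 ± 60.6 CPM in KRM against 17.1 ± 3.58 CPM in CD11cloMϕ, a log2 fold change of 4.64 (adjusted p = 2.41e-06). *Itgb3*, the β chain of platelets and of the vitronectin receptor, was at 0.586 ± 0.386 CPM and 50.4 ± 28.6 CPM, with -6.56 (adjusted p = 0.000108), and *Itga1*, a collagen receptor chain, was lower by -3.95 (adjusted p = 0.00171). Platelet genes, which include the *Itgb3* partner *Itga2b*, summed to 107 to 160.1 CPM in CD11cloMϕ and 44.6 to 65.1 CPM in KRM of Sham kidneys. Between CD11chiMϕ and CD11cloMϕ, *Itga9* passed in Sham (1 of 11 tested, against 1.52% of all genes), at 3.14 (adjusted p = 0.0367), and 4 passed with the replicate number as a block, which pairs the Sham libraries. In RAS *Itgae*, the αE chain that pairs with *Itgb7*, was at 24.7 ± 5.10 CPM in CD11chiMϕ and 1.65 ± 0.721 CPM in CD11cloMϕ, 3.89 (adjusted p = 0.00137), and *Itga1* was lower, -1.96 (adjusted p = 0.0322), as the 2 calls among 10 tested, against 8.27% of all genes. In Sham, leaving out replicate 1 or 2 of either group or replicate 3 of CD11cloMϕ gave 0 calls, and leaving out replicate 3 of CD11chiMϕ gave 4. In RAS, 4 were called without replicate 1 of CD11chiMϕ, and 1 without replicate 2, 3 or 4 of CD11chiMϕ or replicate 1, 2 or 4 of CD11cloMϕ.

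In KRM, 5 of 11 other subunits were higher in RAS than in Sham and 0 lower, and the median log2 fold change of the tested was 2.33 against 0.02 over all genes, where 7.77% of all genes were called higher. *Itgb6*, the epithelial partner of αv, was at 45.5 ± 31.6 CPM in RAS and 3.82 ± 3.88 CPM in Sham, a log2 fold change of 3.60 (adjusted p = 0.042). *Itga3*, a laminin receptor chain of epithelia, was at 23.1 ± 18.3 CPM and 0.394 ± 0.259 CPM, with 5.93 (adjusted p = 0.0231), and *Itga1* rose by 3.78 (adjusted p = 0.0372). These rises stand beside the sum of tubular genes in the same libraries, 1128, 4987 and 3853 CPM in replicates 1, 2 and 3 of RAS against 234 to 1703 CPM in Sham, beside fibroblast and pericyte genes at 44.6, 551 and 597 CPM against 19.8 to 42.3 CPM, beside endothelial genes at 30.4, 218 and 187 CPM against 10.7 to 23.0 CPM, and beside T and NK cell genes at 336, 35.4 and 34.0 CPM against 2.33 to 3.01 CPM; their part in the result was not tested. Without replicate 2 or 3 of RAS, or replicate 1, 2 or 4 of Sham, 0 of the other subunits passed, and without replicate 1 of RAS 8 were higher and 3 lower. Against the other populations in RAS, KRM were higher in *Itgb6*, by 4.30 (adjusted p = 0.0391) against CD11chiMϕ and 4.13 (adjusted p = 0.0346) against CD11cloMϕ, with *Itgb8* higher against CD11chiMϕ (2.07 (adjusted p = 0.0479)) and *Itgb3* lower against CD11cloMϕ (-3.51 (adjusted p = 0.0347)), as 2 calls of 12 and 2 of 13 tested, against 9.23% and 9.17% of all genes. Both counts were 0 without replicate 2 or 3 of KRM RAS, and 7 and 4 without replicate 1. The first was also 0 without replicate 2, 3 or 4 of CD11chiMϕ RAS and 4 without replicate 1 of CD11chiMϕ RAS, and the second was 0 without replicate 2 or 4 of CD11cloMϕ RAS, 1 without replicate 1 and 5 without replicate 3. In the other population comparison of Sham kidneys, KRM against CD11chiMϕ, 1 of 8 was lower, where 5.12% of all genes passed in either direction: *Itgae*, named after its values were seen, at 1.07 ± 0.609 CPM and 10.9 ± 10.3 CPM (adjusted p = 0.0455), and 0 were with the replicate block or without any one of the KRM libraries or replicate 1 of CD11chiMϕ. Without replicate 2 or 3 of CD11chiMϕ, 3 passed. By edgeR 0 other subunits passed between the surgeries in CD11chiMϕ and CD11cloMϕ, with 0 of 10 and 1 of 11 at an unadjusted p under 0.05 (9.79% and 8.96% of all genes) and 0 by DESeq2 and limma.

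Of 33 genes for proteins that activate integrins or tie them to actin, 19 of 31 tested were lower and 3 higher in KRM than in CD11cloMϕ of Sham kidneys, where 22.3% and 19.5% of all genes were, and the median log2 fold change was -0.72 against -0.04 over all genes. *Rasgrp2*, which turns on Rap1 upstream of integrin activation, averaged 2.27 ± 0.663 CPM in KRM against 95.7 ± 9.36 CPM in CD11cloMϕ, a log2 fold change of -5.42 (adjusted p = 1.74e-06). *Vcl* (vinculin), which links talin to actin, was lower by -4.21 (adjusted p = 1.42e-05), and *Zyx* (zyxin), a focal adhesion protein, by -2.33 (adjusted p = 1.97e-05), at 194 ± 27.1 CPM and 957 ± 132 CPM. In RAS, 12 of 33 were lower and 0 higher against CD11cloMϕ, where 5.89% and 3.28% of all genes were, led by *Rasgrp2* at -3.85 (adjusted p = 0.0227), *Fgr*, a Src family kinase downstream of β2, at -2.62 (adjusted p = 0.0268), and *Zyx* at -2.09 (adjusted p = 0.0267). That count was 0 without replicate 2 or 3 of KRM RAS or replicate 2 or 4 of CD11cloMϕ RAS, 6 without replicate 1 of CD11cloMϕ RAS, and 24 (21 lower) without replicate 1 of KRM RAS. Against CD11chiMϕ, 4 of 31 were lower in KRM of Sham kidneys, where 5.12% of all genes passed in either direction, with *Ptk2* (focal adhesion kinase) at -3.86 (adjusted p = 0.0251), *Rasgrp2* at -3.61 (adjusted p = 0.0197) and *Vcl* at -2.29 (adjusted p = 0.0196) among them. Here 1 passed with the replicate block or without replicate 1 of CD11chiMϕ or replicate 1, 2 or 4 of KRM, and 10 (9 lower) without replicate 3 of CD11chiMϕ. In RAS 2 of 33 were higher (*Parva*, 4.12 (adjusted p = 0.0421), and *Fermt2*, 3.50 (adjusted p = 0.0491)) and 4 lower (with *Zyx* at -2.22 (adjusted p = 0.0228)), where 4.17% and 5.07% of all genes were, and 0 to 12 without single libraries. Between CD11chiMϕ and CD11cloMϕ, 0 of 30 passed by edgeR in Sham (2 with the block, 5 at an unadjusted p under 0.05, 4 by DESeq2, 0 by limma) and 1 of 32 in RAS, *Lyn* at -1.01 (adjusted p = 0.0397), where 1.52% and 8.27% of all genes passed, with 0 to 7 when single libraries were left out. In KRM 4 of 33 were higher in RAS than in Sham, where 7.77% of all genes were, among them *Fermt2* at 5.03 (adjusted p = 0.0343) and *Vcl* at 2.65 (adjusted p = 0.0445), 0 passed without replicate 2 or 3 of RAS or replicate 1, 2 or 4 of Sham, and 24 did without replicate 1 of RAS (7 higher, 17 lower). The tubular, fibroblast and endothelial sums given above belong to the same KRM libraries. Their part in this result, and in the higher *Parva* and *Fermt2* of KRM against CD11chiMϕ in RAS, was not tested. In CD11chiMϕ and CD11cloMϕ, 0 passed between the surgeries by edgeR, with 2 of 31 and 1 of 33 at an unadjusted p under 0.05 (9.79% and 8.96% of all genes), 1 and 0 by DESeq2 and 0 by limma.

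Of 40 genes for ligands that the integrins bind, 9 of 28 tested were lower and 5 higher in KRM than in CD11cloMϕ of Sham kidneys, where 22.3% and 19.5% of all genes were. *Fn1* (fibronectin), a ligand of α4β1 and of αv integrins, averaged 19.3 ± 3.52 CPM in KRM against 3402 ± 682 CPM in CD11cloMϕ, -7.49 (adjusted p = 9.34e-07). *Thbs1* (thrombospondin-1) was at 19.6 ± 2.51 CPM and 1419 ± 729.6 CPM, -6.21 (adjusted p = 8.88e-06), and *Adam8*, a metalloprotease with an integrin-binding domain, was lower by -6.51 (adjusted p = 3.1e-06). In RAS 5 of 33 were lower and 1 higher against CD11cloMϕ, where 5.89% and 3.28% of all genes were, with *Fn1* at -5.59 (adjusted p = 0.0141), *Adam8* at -4.63 (adjusted p = 0.0135) and *Thbs1* at -4.44 (adjusted p = 0.0448); 0 passed without replicate 2 or 3 of KRM RAS, 2 without replicate 2 or 4 of CD11cloMϕ RAS, and 17 without replicate 1 of KRM RAS. Against CD11chiMϕ, 5 of 28 were lower in Sham, where 5.12% of all genes passed in either direction, among them *Fn1* at -5.20 (adjusted p = 0.00368), *Adam8* at -4.40 (adjusted p = 0.00487) and *Thbs1* at -3.12 (adjusted p = 0.0283), with 3 called under the replicate block, 2 without any one of the KRM libraries and 9 without replicate 3 of CD11chiMϕ. In RAS 2 of 31 were lower (*Adam8*, -4.52 (adjusted p = 0.00634), and *Fn1*, -4.17 (adjusted p = 0.00533)) and 6 higher, where 5.07% and 4.17% of all genes were, with *Lamb1*, a laminin chain, at 4.55 (adjusted p = 0.0479); of the higher ones 0 or 1 passed without replicate 2, 3 or 4 of CD11chiMϕ RAS or replicate 2 or 3 of KRM RAS, and 18 without replicate 1 of KRM RAS. CD11chiMϕ had less *C3* than CD11cloMϕ, a complement ligand of αM and αX once cleaved, in Sham (-2.94 (adjusted p = 0.0348)) and in RAS (-1.99 (adjusted p = 0.00815)), less *Thbs1* in RAS (-5.08 (adjusted p = 0.00626)), more *F11r*, the junction protein JAM-A that binds αL, in Sham (2.72 (adjusted p = 0.0479)), and more *Mfge8*, a bridge from apoptotic cells to αv integrins, in RAS (2.37 (adjusted p = 0.0403)). These were 2 of 29 and 3 of 30 tested, where 1.52% and 8.27% of all genes passed, and in Sham 7 passed with the block and 0 without replicate 1 or 2 of CD11chiMϕ or without any one of the CD11cloMϕ libraries. In KRM 13 of 32 ligand genes were higher in RAS than in Sham, where 7.77% of all genes were, with *Spp1* (osteopontin) at 4292 ± 3759 CPM and 40.6 ± 46.9 CPM, 6.81 (adjusted p = 0.0321), *Ctgf* at 6.48 (adjusted p = 0.0346) and *Lama5* at 5.78 (adjusted p = 0.03). That count was 0 without replicate 2 or 3 of RAS or replicate 1 or 4 of Sham, 1 without replicate 2 of Sham, and 25 without replicate 1 of RAS (23 higher), and the tubular and fibroblast sums given above belong to the same libraries. Their part in the result was not tested. In CD11chiMϕ and CD11cloMϕ, 0 passed between the surgeries by edgeR, with 8 of 29 and 7 of 32 at an unadjusted p under 0.05 (9.79% and 8.96% of all genes), 6 and 0 by DESeq2 and 0 by limma. Of the 3 lists, 1 gene passed an interaction, *C3*, whose response was higher in KRM than in CD11cloMϕ by 3.36 (adjusted p = 0.0377), and it was lost without any one of 10 of the 14 libraries.

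Genes whose level followed an integrin most closely over the 21 libraries were found by Pearson's r of log2 CPM among 8893 genes with an average log2 CPM of at least 3. The libraries fall into 3 populations, so r mainly describes the order of populations, and no test was made. *Itgax* was most like *Mmp12* (r = 0.966), a macrophage elastase, and *H2-Ob* (r = 0.965), a regulator of class II peptide loading. *Itgam* was most like *Rap1b* (r = 0.967), the GTPase that activates integrins, and *Itgb2* like *Zyx* (r = 0.978). *Itgb5* was most like *Abcc3* (r = 0.985), *C3ar1* (r = 0.981), the receptor for C3a, and *C1qc* (r = 0.970), a chain of complement C1q. *Itgb7* was most like *Cnn2* (r = 0.963), *Dbnl* (r = 0.962) and *Lsp1* (r = 0.957), all actin-binding proteins. The highest r was lowest for *Itgav*, with *Cpd* at 0.887, and *Itga6*, with *Slco2b1* at 0.903, and *Itga6* had another integrin chain, *Itga8*, at 0.9001. *Itgal* was most like *Pcnx* (r = 0.954), *Itga4* like *Gm9733* (r = 0.966) and *Itgb1* like *Nupl1* (r = 0.954).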

How the data were processed

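RNA of sorted macrophages was amplified with an ultra low input kit, and Nextera XT libraries were sequenced. Per the labels and the study's methods, the authors aligned reads with OSA to mm10 and deposited estimated counts per gene, with no normalization, of which 22.6 to 30.3% of nonzero values were not whole. The authors also deposited a log2 table of 14034 lines, scaled as TPM and quantile normalized, in which the column of replicate 1 of KRM RAS did not follow its counts (r = 0.106, against 0.879 to 0.950 in the other libraries). The authors tested with DESeq2. Here, lines of one symbol were summed (37620 lines, 34236 symbols), and expected counts were rounded. Genes were tested with the quasi-likelihood test of edgeR 4.0.16 in R 4.3.3, with TMM factors and edgeR's expression filter (minimum count of 10, minimum total of 15), in the libraries of the groups compared, with Benjamini-Hochberg adjustment over all genes and a threshold of 0.05 with no minimum fold. Interactions used the 2 populations. CPM are counts scaled to the library total multiplied by its TMM factor. Levels per kilobase use merged exons of GENCODE vM21.

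Alternatives were median-of-ratios size factors, total library size, no filter, DESeq2 1.42.0, 1 fit over 6 groups, the replicate number as a block, limma 3.58.1 on the log2 table, and leaving out each library. The shares of all genes that passed are from the main edgeR fits. They are not given for the alternatives, so counts by DESeq2 or limma have no share of their own beside them. Leaving out 4 libraries together, and counting the lists under all settings, were chosen after the data were seen. Sham libraries with the same number deviated together in all 9 pairs of libraries from different populations (r = 0.201 to 0.647, 6 of 9 best with their own number), so the number was taken to pair them. RAS libraries with the same number did so in all 10 pairs (r = 0.0535 to 0.505, 8 of 10 best with their own number). The main tests used no pairing in either surgery. The genes and lists were chosen with earlier results of these data known. From the lists, at most the 3 called genes of largest log2 fold change, among genes whose average log2 CPM reaches 3, are named for each comparison, and for each integrin up to 3 most alike genes. The labels do not say that replicates are separate animals. Scripts were tested on simulated data.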

Additional observations from a re-analysis of the deposited data

Results flagged for a closer look

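In 30 combinations of a gene with a group of 4 libraries, 6 held a library far from the other 3 by Dixon's test, which chance gives in about 1 of 20. In CD11chiMϕ of RAS kidneys this was replicate 1, with *Itgal* at 318.3 CPM against 57.96 to 86.97 CPM, *Itgav* at 109.6 CPM against 39.97 to 47.32 CPM, and *Itga6* at 50.01 CPM against 5.588 to 11.43 CPM. In CD11cloMϕ of RAS kidneys it was replicate 3, with *Itgal* at 199.8 CPM against 558.6 to 612.5 CPM and *Itgb5* at 536.0 CPM against 135.5 to 201.6 CPM. In KRM of Sham kidneys it was replicate 1, with *Itgav* at 101.4 CPM against 174.0 to 178.0 CPM.

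For *Itgb5* the log2 fold change of RAS against Sham had opposite signs in KRM (-0.27, adjusted p = 0.206) and CD11cloMϕ (1.12, adjusted p = 0.554; 0.48 without replicate 3 of CD11cloMϕ RAS), and by edgeR neither passed. All RAS libraries were below all Sham libraries in KRM and above them in CD11cloMϕ. In KRM the gap lay between 622.8 and 627.8 CPM and rested on the TMM factors. The difference of the responses was -1.445 on the log2 scale and did not pass the interaction test of edgeR (adjusted p = 0.1416). It was -0.832 (adjusted p = 0.118) without replicate 3 of CD11cloMϕ RAS.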

How the results depend on the processing

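Of the values for single genes under the alternatives, 1782 kept their direction and their side of the threshold, 91 passed it newly, 55 no longer passed it, 3 moved by more than the spread and 129 had the other sign. Of these 129, which belong to 36 combinations of a gene and a comparison with log2 fold changes of at most 0.629 in size, 0 passed in either fit. Among values given above, *Itgb1* turned to -0.0662 with the replicate block in KRM against CD11cloMϕ of Sham, to -0.185 without the 4 libraries in KRM against CD11chiMϕ of Sham, and to 0.118 by limma without replicate 1 of KRM RAS in KRM against CD11cloMϕ of RAS, and by the same fit *Itgav* turned to -0.0772 for RAS against Sham in KRM. Without single libraries, *Itgb1* ran from -0.185 to 0.315 and from -0.0541 to 0.126 in KRM against CD11chiMϕ and CD11cloMϕ of Sham, *Itgal* from -1.71 to 0.27 in KRM against CD11chiMϕ of RAS and from -1.44 to 0.00623 for RAS against Sham in KRM, and *Itga4* from -0.948 to 0.116 in the latter. KRM against CD11cloMϕ in Sham gave 7 genes under each alternative other than 1 fit over all 6 groups. With DESeq2 the counts were 2 for KRM against CD11chiMϕ in Sham, 1 for CD11chiMϕ against CD11cloMϕ in Sham, 5 and 2 for the same comparisons in RAS, 2 for RAS against Sham in KRM, and 2 and 1 for the interactions of KRM with CD11chiMϕ and CD11cloMϕ. Total library size gave 0 and 1 fit over all groups 0 for RAS against Sham in KRM, and 1 fit gave 5 for KRM against CD11chiMϕ in RAS. Limma gave 2 for RAS against Sham in KRM and 1 for KRM minus CD11cloMϕ, and without replicate 1 of KRM RAS 5, 2 (KRM minus CD11chiMϕ) and 1 (KRM minus CD11cloMϕ). The 4 libraries left out together were chosen from these levels, and gave 5 and 1 in Sham (KRM and CD11cloMϕ against CD11chiMϕ), 6, 7 and 3 in RAS (KRM against CD11chiMϕ, KRM against CD11cloMϕ, CD11chiMϕ against CD11cloMϕ), 3 and 5 for RAS against Sham in CD11chiMϕ and KRM, and 5, 3 and 2 for the interactions. Leaving out single libraries gave, in the same order of comparisons, 0 to 5, 7 to 7 and 0 to 1 in Sham, 0 to 5, 0 to 6 and 0 to 3 in RAS, 0 to 0, 0 to 0 and 0 to 5 for RAS against Sham, and 0 to 1, 0 to 1 and 0 to 0 for the interactions. The 3 lists gave 120 calls in 12 comparisons, 261 with DESeq2, 315 without the 4 libraries and 62 to 251 without single ones. Without gene length, *Itgal* took 34.9% of β2 partners in CD11cloMϕ Sham and 14.23% in KRM Sham, and *Itgax* 48.24% and 36.59% in KRM Sham and RAS. Total library size moved the median log2 fold change of all genes by 0.233 and 0.211 for KRM against CD11chiMϕ and CD11cloMϕ in RAS. The cause of these changes was not tested.

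With the replicate number as a block, no call of the 10 genes changed in Sham. In RAS, libraries of the same number also deviated together between populations (r of 0.0535 to 0.505, 8 of 10 best with their own number). Between RAS and Sham within a population r was -0.196 to 0.325, with 3 of 9 best with their own number. The block gave 0 for KRM against CD11chiMϕ in RAS, 2 for CD11chiMϕ against CD11cloMϕ in RAS and 0 for RAS against Sham in KRM. For KRM against CD11cloMϕ it kept a count of 4, in which *Itgav* no longer passed (adjusted p = 0.0684) and *Itgal* did (0.0437). Of the 3 lists (other subunits, adaptors and ligands), the block in RAS gave 0, 0 and 2 calls for KRM against CD11chiMϕ (2, 6 and 8 without it), 4, 7 and 13 for KRM against CD11cloMϕ (2, 12 and 6), 2, 5 and 5 for CD11chiMϕ against CD11cloMϕ (2, 1 and 3), and 1, 0 and 1 for RAS against Sham in KRM (5, 4 and 13). The genes called were not always the same. By edgeR with the block, *Lyn*, *Itga1* and *Mfge8* did not pass between CD11chiMϕ and CD11cloMϕ of RAS kidneys (adjusted p = 0.0509, 0.0541 and 0.0561).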
